A study of Mus musculus with 2 samples.

Results

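The genes described here are the secreted ligands and antagonists of the bone morphogenetic protein (BMP) pathway in mouse embryonic tissue taken at E9.5 from the level of the cardiac neural crest. They were chosen by name as 6 ligands (Bmp2, Bmp4, Bmp5, Bmp6, Bmp7 and Gdf7) and 3 antagonists (Nog, Chrd and Grem1). The deposited tables had a column for 8 of these 9 genes, among 18131 genes in all, and had none for Gdf7. The tissue reached from the mid-otic level back to the end of the fourth somite, and it was profiled by droplet single-cell RNA sequencing of transcript 3′ ends. WT embryos were Prdm6+/+; Wnt1-Cre2; ZsGreen1 and KO embryos were Prdm6f/f; Wnt1-Cre2; ZsGreen1, all of strain C57BL/6. Wnt1-Cre2 drives Cre recombinase in cells that express Wnt1 and their descendants, which include the neural crest, and ZsGreen1 is a green fluorescent reporter that Cre switches on. Both genotypes thus carry Cre and the reporter, and only in the Cre lineage of KO embryos is Prdm6, a histone methyltransferase gene, deleted. The samples are labelled as cardiac neural crest cells, yet they were not described as sorted, and many other lineages were among the captured cells.

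BMPs are secreted dimers of the TGF-β superfamily that bind pairs of serine/threonine kinase receptors on neighbouring cells and activate SMAD transcription factors. Noggin, chordin and gremlin bind the ligands outside the cell and keep them from the receptors. At midgestation BMPs from the heart, roof plate, surface ectoderm and pharyngeal tissues are known to act on the neural crest, on myocardial identity in the atrioventricular canal and outflow tract, and on the growth of the chambers.

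There was 1 library per genotype, so that no difference has a replicate check, and no test across cells was made. The WT library held 11958 cells (median 1597 UMIs per cell) and the KO library held 9765 cells (median 1703), where a UMI (unique molecular identifier) stands for 1 captured transcript. Levels are UMIs per 1000000 UMIs (CPM) of a library, or of a cell class in that library, and every interval is at 95% and covers counting error only. Prdm6 itself had 104 UMIs in WT and 59 in KO (5.00 and 3.12 CPM), and since only 3′ ends were read, transcripts of the deleted and the intact allele look alike. Cells were sorted into classes by lists of 8 markers each, by a rule that asked for at least 2 markers above what the cell's depth would give. Of 20 such gates, 18 held at least 30 cells in each library. The class names are those of the gates, so that cardiac muscle-like cells, for example, are cells with raised Myl7, Tnnt2, Ttn and similar genes. The gated share was 32.2% in WT and 26.4% in KO, and of these cells 46.0% and 51.8% had just the 2 raised markers needed. In every compared class more of the 10 leading genes were its own markers than those of any other class. The cells were chosen by these same markers, so this cannot serve as a check of the class names.

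The 8 measured genes lie on 6 chromosomes of the mouse genome (GRCm38.p6, the build also called mm10). Among the ligands, Bmp2 is at chr2:133552159-133562896, Bmp4 at chr14:46383525-46390669, Bmp5 at chr9:75775365-75900316, Bmp6 at chr13:38345716-38500314 and Bmp7 at chr2:172868012-172940321. Among the antagonists, Nog is at chr11:89300638-89302559, Chrd at chr16:20731425-20742384 and Grem1 at chr2:113748675-113758648. The DNA just before the transcription starts of the members differed in base composition. RefSeq promoter windows were matched for 6 of the 9 genes (Bmp4, Bmp5, Bmp6, Gdf7, Chrd and Grem1). Shown are the 250 bases before the transcription start of Bmp4 and Bmp5, ligands that are both high in cardiac muscle-like cells but were unequally distributed within them, and of Grem1, the member with the higher level in KO, all in GRCm38.p6 and read 5′ to 3′ on the strand of the gene. Capitals mark each CG dinucleotide, a motif found in 92.1% of 32851 promoter windows of this length.

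Bmp4, chr14:46390670-46390919, minus strand: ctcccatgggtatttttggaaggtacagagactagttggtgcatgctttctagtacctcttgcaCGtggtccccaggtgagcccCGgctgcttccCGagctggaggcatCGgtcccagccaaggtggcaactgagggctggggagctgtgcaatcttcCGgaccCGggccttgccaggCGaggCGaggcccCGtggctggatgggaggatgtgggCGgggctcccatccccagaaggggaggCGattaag
Bmp5, chr9:75775115-75775364, plus strand: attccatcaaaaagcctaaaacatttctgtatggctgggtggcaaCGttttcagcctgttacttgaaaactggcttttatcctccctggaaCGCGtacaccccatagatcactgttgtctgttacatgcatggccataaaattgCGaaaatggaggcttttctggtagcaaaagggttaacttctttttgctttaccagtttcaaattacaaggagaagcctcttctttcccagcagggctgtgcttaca
Grem1, chr2:113758649-113758898, minus strand: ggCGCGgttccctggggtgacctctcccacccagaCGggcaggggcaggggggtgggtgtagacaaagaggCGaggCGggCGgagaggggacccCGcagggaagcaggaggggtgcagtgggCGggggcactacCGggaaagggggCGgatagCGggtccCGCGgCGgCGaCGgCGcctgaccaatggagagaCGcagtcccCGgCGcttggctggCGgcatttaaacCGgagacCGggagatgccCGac

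The Bmp4 window held 11 CG dinucleotides at 63.2% G and C, and 35.6% of all windows held at least as many. The Bmp5 window held 4 at 42.8% G and C, and 44.4% of all windows held no more, so that it lay near the middle. The Grem1 window was rich in them, with 24 at 72.0% G and C, a number reached by 12.0% of all windows. The median over all windows was 6 CG dinucleotides and 52.4% G and C.

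To determine which cells make the ligands, the level of each gene was taken in the 18 classes. Cardiac muscle-like cells were the largest gated source of BMP ligands in both libraries. The 721 WT and 404 KO cells of this class, 6.03% and 4.14% of the libraries, held 27.8% and 25.2% of all UMIs of the 5 measured ligands. Their summed level was 504 CPM in WT (470 to 539) and 498 CPM in KO (458 to 540), a log2 ratio (KO over WT throughout) of −0.02 (−0.17 to 0.14), so that the intervals of the libraries overlapped widely. Bmp2, Bmp4, Bmp5 and Bmp7 were all detected in these cells, whereas Bmp6 had 10 and 8 UMIs there. By contrast the summed level was 45.7 and 38.3 CPM in erythroid-like cells, which should not express BMPs. Erythroid-like cells therefore served as the measure of free RNA in the droplets, since UMIs of erythroid markers were also found in the cells of other classes.

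**Figure D1:**
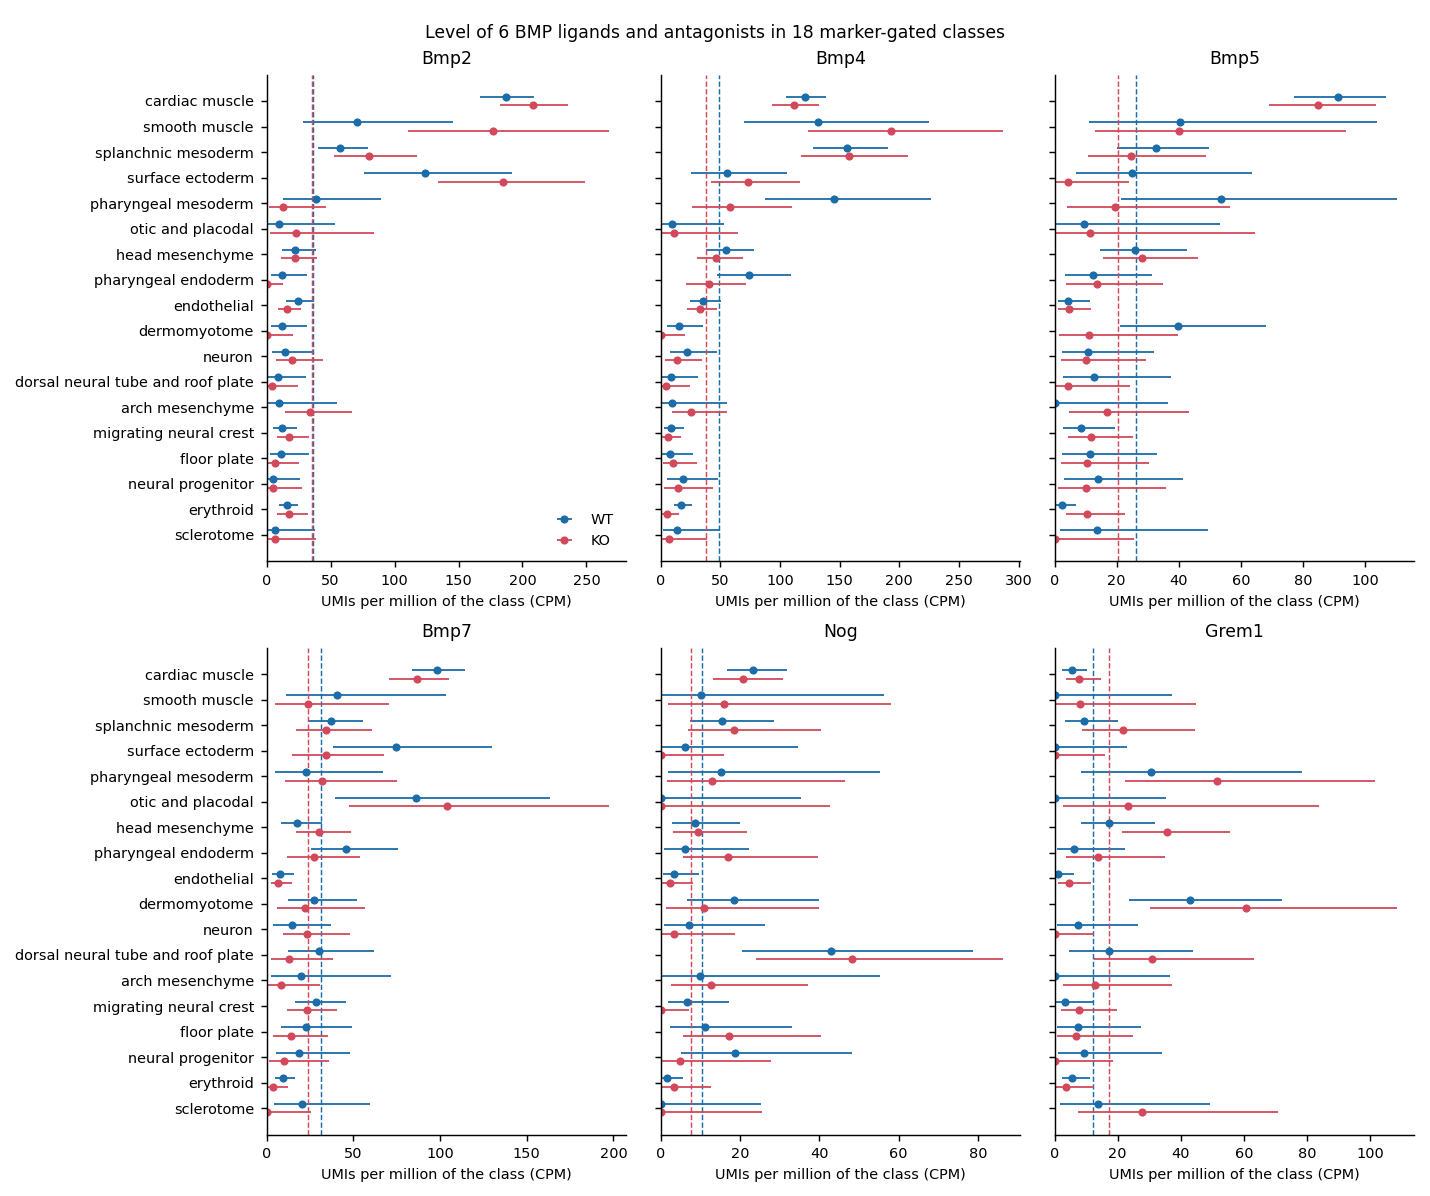
Level of Bmp2, Bmp4, Bmp5, Bmp7, Nog and Grem1 in the 18 classes in WT (blue) and KO (red). Points are CPM of the class, bars are exact Poisson intervals of 95% (counting error only) and dashed lines are the level over all cells of each library, with classes ordered by their summed ligand level. Bmp2, Bmp5 and Bmp7 lie far to the right in cardiac muscle-like cells (187, 91.1 and 98.3 CPM in WT), Nog peaks in dorsal neural tube-like cells (42.9 CPM) and Grem1 in dermomyotome-like cells (42.9 CPM).

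Bmp2, a ligand needed for the patterning of the atrioventricular canal and for neural crest emigration, had its highest level in cardiac muscle-like cells. The cardiac muscle gate held 312 Bmp2 UMIs in WT and 240 in KO, or 187 CPM (167 to 209) and 208 CPM (182 to 236). These cells held 41.6% of all Bmp2 UMIs in WT and 35.5% in KO, beside 37.9% and 41.0% in cells without a gate, at 5.18 and 5.82 times the level over all cells. Among the 6 members with at least 200 UMIs Bmp2 was the only one concentrated in 1 class, taken as a level at least 5-fold above that of all cells in the same class of both libraries. The rule was met by 5.15% of the 10513 genes with at least 200 UMIs. A Bmp2 UMI was found in 18.9% of WT and 19.6% of KO cells of this class (median depths 2253 and 3000 UMIs), against 3.13% and 4.26% of erythroid-like cells (median depths 1880.5 and 2393). With every cell thinned to 1000 UMIs (1361 WT and 125 KO cells were too shallow for this), the shares were 12.9% and 10.9% against 2.02% and 0.437%. Single cells carried up to 9 Bmp2 UMIs in WT and 16 in KO. Without cells that passed more than 1 gate the level in this class was 212 CPM in WT and 161 CPM in KO, where surface ectoderm-like cells were then higher, and Bmp2 no longer met the rule.

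The next classes for Bmp2 were epithelial and muscular. Surface ectoderm-like cells, marked by Trp63, Wnt6 and Grhl3, had 124 CPM in WT (75.7 to 191) and 185 CPM in KO (134 to 249). In smooth muscle-like cells there were 7 UMIs in WT and 22 in KO, or 70.9 and 177 CPM, a log2 ratio of 1.32 (0.04 to 2.79) on fewer than 30 UMIs, and splanchnic mesoderm-like cells had 57.3 and 80.4 CPM. In endothelial-like, neural and head mesenchyme-like cells Bmp2 lay between 4.39 and 24.5 CPM, a range that holds the erythroid-like levels of 15.8 and 17.4 CPM, and is therefore read as background. The order of cardiac muscle-like over splanchnic mesoderm-like cells exceeded counting error in both libraries, while those of the cardiac muscle-like and surface ectoderm-like classes overlapped in both libraries, and in KO that of smooth muscle-like cells overlapped them too.

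Bmp4, the main ligand of early mesoderm and of the second heart field, was more broadly spread over mesoderm. In splanchnic mesoderm-like cells, which carry Foxf1, Gata4, Osr1 and Wnt2, Bmp4 had 101 UMIs in WT and 51 in KO, or 157 CPM (128 to 190) and 158 CPM (117 to 207). The levels of both libraries were nearly equal, with a log2 ratio of 0.01 (−0.51 to 0.51). With at least 3 raised markers they were 234 and 238 CPM. Cardiac muscle-like cells had 121 and 112 CPM, and smooth muscle-like cells had 132 and 193 CPM. The intervals of these 3 classes overlapped in each library, so no order among them is given. Pharyngeal mesoderm-like cells, marked by Tbx1, Tcf21, Isl1 and Lhx2, had 145 CPM in WT from 19 UMIs and 57.9 CPM in KO from 9 UMIs. This was a log2 ratio of −1.33 (−2.65 to −0.11), in a class of 68 WT and 70 KO cells and on fewer than 30 UMIs. Pharyngeal endoderm-like cells had 73.7 and 40.8 CPM, and head mesenchyme-like cells had 55.2 and 46.8 CPM. A Bmp4 UMI was found in 19.5% of WT and 22.1% of KO splanchnic mesoderm-like cells, or in 10.7% and 13.1% after thinning, against 2.66% and 1.28% of erythroid-like cells, or 1.01% and 0.873% after thinning. Dorsal neural tube-like and migrating neural crest-like cells had 2 and 5 Bmp4 UMIs in WT and 1 and 3 in KO, levels of 4.39 to 8.57 CPM. Erythroid-like cells had 17.3 CPM in WT and 5.23 CPM in KO, from 22 and 3 UMIs, a log2 ratio of −1.73 whose interval (−4.11 to 0.0036) held 0.

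Bmp5 and Bmp7, ligands with overlapping roles in the heart and pharyngeal arches, were both high in cardiac muscle-like cells, which had the highest Bmp5 level in both libraries. Bmp5 had 152 UMIs in WT and 98 in KO cardiac muscle-like cells, or 91.1 CPM (77.2 to 107) and 84.9 CPM (68.9 to 103). In no other of the compared classes did its level exceed 53.6 CPM in WT, which was reached in pharyngeal mesoderm-like cells from 7 UMIs. Bmp5 in dermomyotome-like cells, which carry Pax3, Myf5 and Dmrt2, had 13 UMIs in WT and 2 in KO, with an interval of the log2 ratio from −5.04 to 0.29. Bmp7 had 164 and 100 UMIs in cardiac muscle-like cells, or 98.3 CPM (83.8 to 115) and 86.6 CPM (70.5 to 105). Its other site was epithelial, with 86.2 and 104 CPM in otic and placodal-like cells from 9 UMIs in each library, and 74.4 and 34.4 CPM in surface ectoderm-like cells. The intervals of the cardiac muscle-like and otic and placodal-like cells overlapped in both libraries, and the otic and placodal-like class came first in KO, and in WT too with means over cells or without cells that passed more than 1 gate. Migrating neural crest-like cells, marked by Sox10, Foxd3 and Erbb3, had 28.4 and 23.2 CPM of Bmp7, while erythroid-like cells had 9.46 and 3.48 CPM. The intervals of the WT levels, 16.6 to 45.5 and 4.89 to 16.5 CPM, just failed to overlap, and those of KO overlapped.

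Bmp6 was scarce, with 54 UMIs in WT and 50 in KO over all cells (2.60 and 2.64 CPM). In WT the class with the highest level was the dorsal neural tube and roof plate gate, with 7 UMIs (12.1 to 61.8 CPM), and there were 2 UMIs in KO (8.78 CPM), both in 1 cell. The roof plate is a known source of BMPs for the dorsal spinal cord. At this depth a difference between the libraries was not detectable, with an interval of the log2 ratio from −5.08 to 0.62.

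Under the main gates Nog and Grem1 were highest in other classes than Bmp2, Bmp4, Bmp5 and Bmp7. For Nog this depended on the setting. Nog, which encodes noggin, was highest among the compared classes in dorsal neural tube-like cells in both libraries, with 10 UMIs in WT (42.9 CPM, 20.6 to 78.8) and 11 in KO (48.3 CPM, 24.1 to 86.4). Cells of the notochord gate, which were too few to be compared (28 in WT and 6 in KO), had 7 and 2 Nog UMIs, or 137 CPM (55.2 to 283) and 133 CPM (16.1 to 481). The notochord is a classical source of noggin. Dorsal neural tube-like cells stayed first with markers raised at 0.01, with means over cells and without cells that passed more than 1 gate. With at least 3 raised markers the class was too small to be compared. Nog was then highest in cardiac muscle-like cells in WT and in splanchnic mesoderm-like cells in KO. Cells without a gate were also assigned to the nearest class profile, a step added after the data were seen. There dermomyotome-like cells came first in WT and cardiac muscle-like cells in KO. In WT the interval of the notochord gate overlapped that of dorsal neural tube-like cells. Cardiac muscle-like cells had 39 and 24 Nog UMIs at 23.4 and 20.8 CPM, above the 1.58 CPM (0.191 to 5.70) of WT erythroid-like cells, and in both libraries their interval overlapped that of dorsal neural tube-like cells.

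Grem1, which encodes gremlin, an antagonist with a preference for BMP2 and BMP4, had its highest level in dermomyotome-like cells, with 14 UMIs in WT (42.9 CPM, 23.4 to 71.9) and 11 in KO (60.6 CPM, 30.3 to 109). Pharyngeal mesoderm-like cells had 30.6 and 51.5 CPM and head mesenchyme-like cells, marked by Pdgfra, Foxd1 and Twist1, had 17.3 and 35.6 CPM, and the intervals of these 3 classes overlapped in each library. Cardiac muscle-like cells, the largest gated source of ligands, had 9 Grem1 UMIs in each library (5.39 and 7.79 CPM), near the 5.52 CPM of WT erythroid-like cells. Of all Grem1 UMIs, 73.2% in WT and 72.8% in KO lay in cells without a gate. Chrd, which encodes chordin, had 23 UMIs in WT and 18 in KO over all cells, too few to place in any class. Of the WT UMIs, 1 lay in the notochord gate.

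Ligand and antagonist UMIs were summed over the members and set against each other. There were 17.5 ligand UMIs per antagonist UMI in WT and 16.4 in KO cardiac muscle-like cells, and 10.9 and 7.62 in splanchnic mesoderm-like cells. Endothelial-like cells had the same 17.5 in WT and 7.38 in KO, from 4 and 8 antagonist UMIs and at lower levels of both sums (78.0 and 67.3 CPM of ligands). Among the lowest, dorsal neural tube-like cells had 1.4 and 0.421 (21 ligand to 15 antagonist UMIs in WT and 8 to 19 in KO), and dermomyotome-like cells had 1.60 and 0.429 (32 to 20 and 6 to 14). These rest on few UMIs, and the KO ligand levels of both classes were at or below that of erythroid-like cells. Over all cells there were 6.19 in WT and 4.67 in KO. UMIs of different genes are counted per transcript end and not per length, so that these are ratios of captured transcripts and not of protein.

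**Figure D2:**
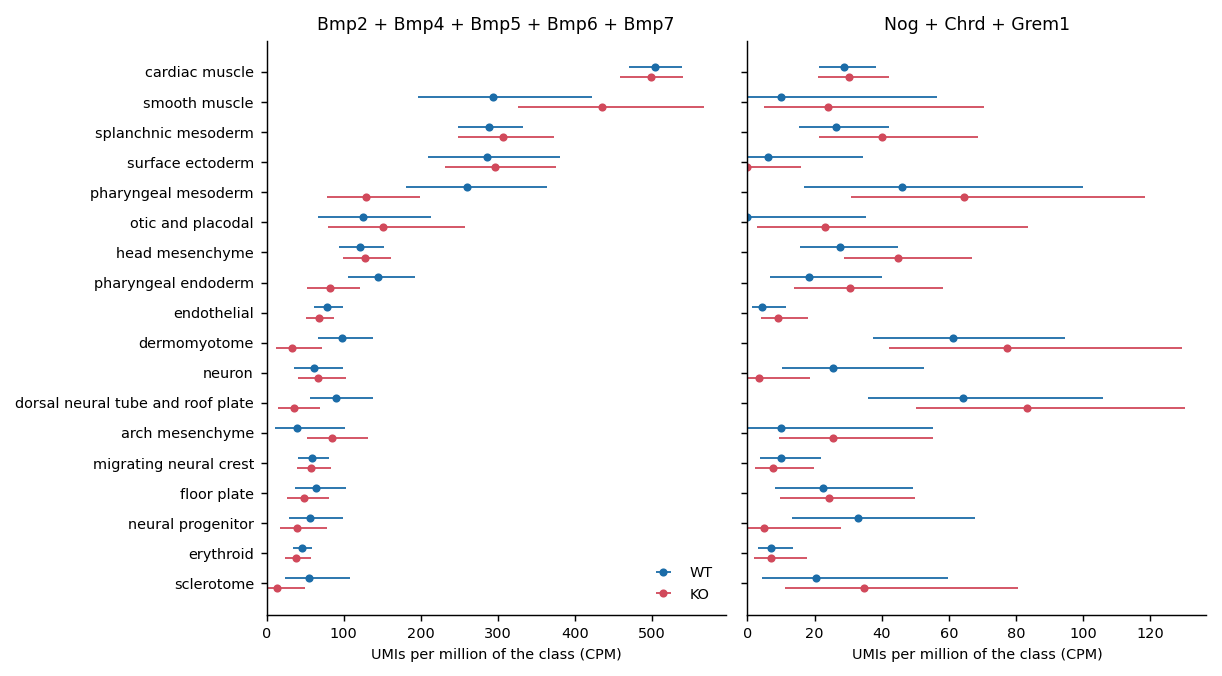
Summed level of the 5 measured ligands (left) and the 3 antagonists (right) in each class in WT (blue) and KO (red). Points are CPM of the class and bars exact Poisson intervals of 95%. Ligands were highest in cardiac muscle-like cells (504 and 498 CPM), with an interval that in KO overlaps that of smooth muscle-like cells. In cardiac muscle-like cells antagonists were at 28.8 and 30.3 CPM. The antagonists were highest in dorsal neural tube-like cells (64.3 and 83.4 CPM), with intervals that overlap those of dermomyotome-like cells (61.2 and 77.2 CPM) in both libraries.

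To determine how the ligands differ from each other within the heart, cardiac muscle-like cells were divided by whether they had a UMI of a regional gene. These 9 regional genes were chosen after the member values had been seen. Tbx2 and Tbx3 are transcription factors of the atrioventricular canal, Rspo3 is a secreted Wnt amplifier, Shox2 marks the sinus venosus, Isl1, Wnt11 and Tdgf1 are known from the outflow tract, Nppa marks the chamber myocardium, and Tbx5 marks the inflow side and the left ventricle. Isl1 and Tbx5 were also markers of other gates. Cells without a UMI of a gene can still express it, so the contrasts are between enriched groups.

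Bmp2 was higher with the atrioventricular genes, though not with them alone. Cardiac muscle-like cells with a Tbx3 UMI (64 in WT and 40 in KO) had 382 and 625 CPM of Bmp2, against 166 and 155 CPM in those without. The log2 ratio of cells with over cells without was 1.20 (0.77 to 1.61) in WT and 2.01 (1.61 to 2.41) in KO. Bmp4 did not follow, with −1.05 (−2.13 to −0.14) in WT and −0.05 (−0.97 to 0.75) in KO. For Bmp2, cells with a Tbx2 UMI showed the same direction, with 343 against 178 CPM in WT and 527 against 190 CPM in KO. The chamber gene Nppa went the other way. Nppa-positive cells (151 and 128) had 66.4 and 82.5 CPM of Bmp2, against 224 and 274 CPM in the others, a log2 ratio of −1.75 (−2.39 to −1.17) in WT and −1.73 (−2.31 to −1.20) in KO. With Tbx5 the log2 ratio was 0.61 in WT and 1.12 in KO, and both intervals lay above 0.

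Bmp4 was highest with a set of genes that in part overlapped that of Bmp2. In Shox2-positive cells (41 in WT and 23 in KO) it reached 587 CPM (438 to 769) and 367 CPM (232 to 550), against 94.96 and 97.1 CPM in the others. The log2 ratio was 2.63 (2.14 to 3.09) in WT and 1.92 (1.20 to 2.58) in KO. Bmp2 was also high in the Shox2-positive cells of WT, at 553 against 167 CPM (1.73, 1.26 to 2.18), whereas in KO it was at 287 against 203 CPM (0.50, −0.28 to 1.19). In Isl1-positive cells (38 and 30) Bmp4 was at 335 and 194 CPM, against 109 and 104 CPM. For Bmp2 the log2 ratio with Isl1 was −0.12 (−0.94 to 0.60) in WT and −0.03 (−0.76 to 0.64) in KO. Tdgf1-positive cells (23 in each library) had 326 and 182 CPM of Bmp4, with log2 ratios of 1.51 (0.73 to 2.21) and 0.77 (−0.14 to 1.58), and their Bmp2 was lower, at −1.82 (−4.11 to −0.26) and −1.05 (−2.27 to −0.04). Like Bmp2, Bmp4 was low in Nppa-positive cells, at 53.6 CPM against 142 CPM in WT and 22.5 CPM against 159 CPM in KO. Rspo3-positive cells (105 and 62) were high in both ligands, with 394 and 472 CPM of Bmp2 and 201 and 161 CPM of Bmp4. After thinning, 18.9% of WT cells with a Bmp2 UMI also had a Bmp4 UMI (17 of 90 cells, 11.4% to 28.5%), against 8.52% of those without (6.43% to 11.03%). In KO the shares were 15.9% (6.64% to 30.1%) and 9.497%, and their intervals overlapped. Of the 10 pairs among Bmp2, Bmp4, Bmp5, Bmp7 and Nog that were looked at in each library, Bmp5 with Bmp7 in KO also had intervals that did not overlap (21.2%, 8.98% to 38.9%, against 5.15%, 3.13% to 7.92%), but in WT the shares were 9.68% and 9.87%.

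Bmp5 was low in the Isl1-positive and Shox2-positive cells, where Bmp4 was high. In Isl1-positive cells it had 2 UMIs in each library, or 21.6 CPM in WT and 20.5 CPM in KO, against 95.2 and 90.8 CPM in the others. The log2 ratio was −2.14 (−5.20 to −0.26) in WT and −2.15 (−5.22 to −0.26) in KO. Shox2-positive cells had 1 Bmp5 UMI in each library, and the interval of the log2 ratio lay below 0 in WT (−8.40 to −0.58) and reached 0.03 in KO. In Nppa-positive cells Bmp5 was at 102 and 82.5 CPM, against 87.7 and 86.1 CPM, with both intervals of the log2 ratio around 0. For Bmp7 no gene gave an interval without 0 in both libraries. With Nppa its log2 ratio was 0.35 (−0.18 to 0.85) in WT and 0.68 (0.08 to 1.28) in KO, and with Tbx3, Shox2 and Isl1 each of its intervals held 0 in both. Bmp10, a chamber ligand of the other pathway genes with 44 UMIs in WT and 30 in KO, was higher in Nppa-positive cells, at 28.1 against 9.399 CPM in WT, and with 8 UMIs against 3 UMIs in KO (log2 ratio of levels 2.33, 0.27 to 4.88). Wnt11-positive cells numbered 13 and 15, and no ligand had an interval on the same side of 0 in both libraries.

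**Figure D3:**
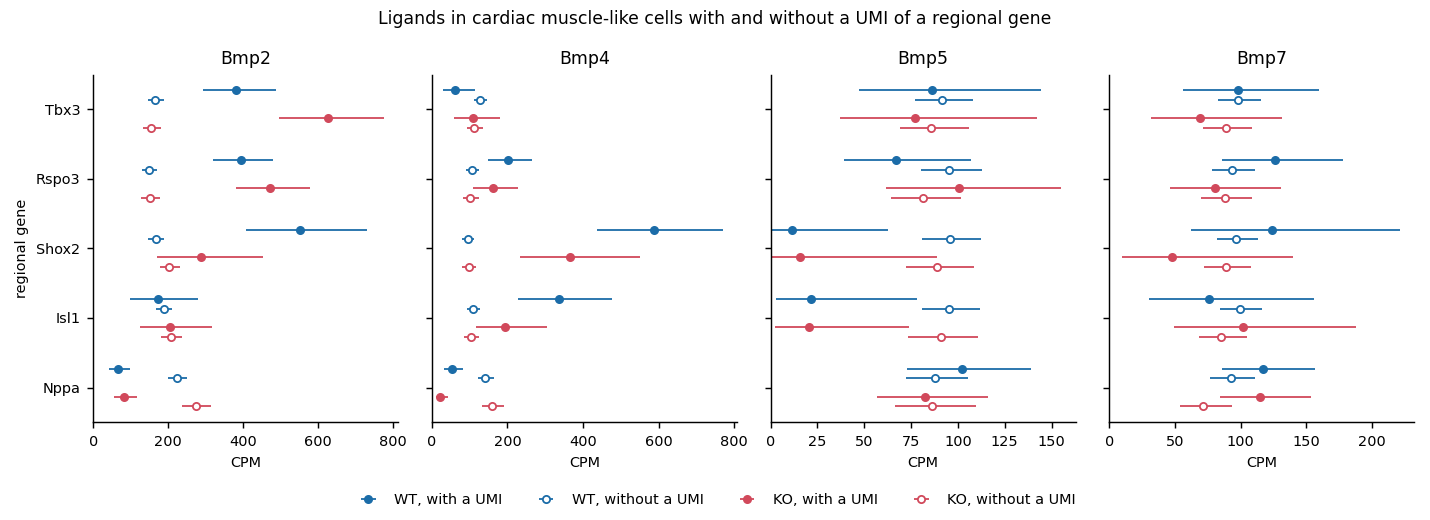
Bmp2, Bmp4, Bmp5 and Bmp7 in cardiac muscle-like cells with (filled) and without (open) a UMI of 5 regional genes, in WT (blue) and KO (red). Points are CPM and bars exact Poisson intervals of 95%. Bmp2 is high with Tbx3 (382 and 625 CPM) and in WT also with Shox2 (553 CPM). Bmp4 is high with Shox2 (587 and 367 CPM). Bmp5 is low with Isl1 and Shox2, and Bmp2 and Bmp4 are low with Nppa.

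The KO library was then compared with the WT library. Over all cells, 4 of the 6 members with at least 200 UMIs had a lower level in KO and 1 had a higher level beyond counting error, and 0 passed 1.5-fold in either direction. A level at least 1.5-fold lower was found for 2.02% of the 10513 genes and one at least 1.5-fold higher for 0.371%. The interval of the log2 ratio lay below 0 for 29.1% of these genes and above 0 for 16.9%, so that intervals without 0 were common among all genes. The median log2 ratio over all genes was −0.06, and the 5th and 95th percentiles were −0.44 and 0.30.

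Bmp4 had 1023 UMIs in WT and 716 in KO, or 49.2 and 37.8 CPM, with a log2 ratio of −0.38 (−0.52 to −0.24). Bmp5 had 26.3 and 20.5 CPM (−0.36, −0.55 to −0.17), Bmp7 had 31.5 and 24.0 CPM (−0.39, −0.57 to −0.22) and Nog had 10.4 and 7.76 CPM (−0.42, −0.73 to −0.11). These 3 ligands and this antagonist lay between the 5th and the 50th percentile of all genes. For Bmp2 the levels were nearly equal, at 36.1 and 35.7 CPM (−0.02, −0.17 to 0.14). Grem1 was the exception, with 250 UMIs in WT and 324 in KO, or 12.0 and 17.1 CPM, and its log2 ratio of 0.51 (0.27 to 0.75) lay above the 95th percentile of all genes. The summed ligands went from 146 to 121 CPM (−0.27, −0.35 to −0.19), and the summed antagonists were at 23.5 and 25.8 CPM (0.13, −0.05 to 0.32). Fewer cells of a ligand-rich class and fewer transcripts per cell cannot be told apart in these levels over all cells. The background in erythroid-like cells also differed, with Bmp4 at 17.3 CPM in WT and 5.23 CPM in KO and Bmp7 at 9.46 and 3.48 CPM. Bmp2 (15.8 and 17.4 CPM) and Bmp5 (2.37 and 10.5 CPM) were not lower there in KO. The part of background in the levels over all cells was not tested.

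The libraries differed in the shares of some classes that carry the ligands. Cardiac muscle-like cells were 6.03% of WT and 4.14% of KO cells and splanchnic mesoderm-like cells were 2.78% and 1.48%, with intervals that did not overlap. Surface ectoderm-like cells were 0.610% (0.479% to 0.767%) and 0.911% (0.733% to 1.12%). Smooth muscle-like cells were 0.443% (0.332% to 0.579%) and 0.563% (0.425% to 0.733%). The intervals of these last 2 classes overlapped between the libraries. Erythroid-like cells, the measure of background, were 5.34% and 2.41%. With gated and ungated cells at the same class shares in both libraries, a setting added after the data were seen, the log2 ratio was −0.21 for the summed ligands, −0.34 for Bmp4, −0.31 for Bmp5, −0.35 for Bmp7, −0.39 for Nog and 0.46 for Grem1, near the values over all cells. With the gated classes alone at the same shares, which also leaves out all cells without a gate, it was −0.07 for the summed ligands, −0.18 for Bmp4, −0.15 for Bmp5, −0.06 for Nog and 0.71 for Grem1, the single member past 1.5-fold under that setting. It was −0.26 for Bmp7 and 0.19 for Bmp2. Cells without a gate, which held 48.9% of ligand UMIs in WT and 51.2% in KO, gave log2 ratios of −0.43 for Bmp4, −0.40 for Bmp5, −0.41 for Bmp7, −0.60 for Nog and 0.39 for Grem1, each with an interval that leaves out 0. The makeup of the cells without a gate was looked at only through the nearest class profile, which returned 74.4% of held-out gated cells to their gate. With these cells added, splanchnic mesoderm-like cells numbered 1105 in WT and 500 in KO (333 and 145 gated). Dorsal neural tube-like cells numbered 2204 and 3034 (124 and 111 gated). How far this makeup enters the ratios of the cells without a gate was not tested.

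**Figure D4:**
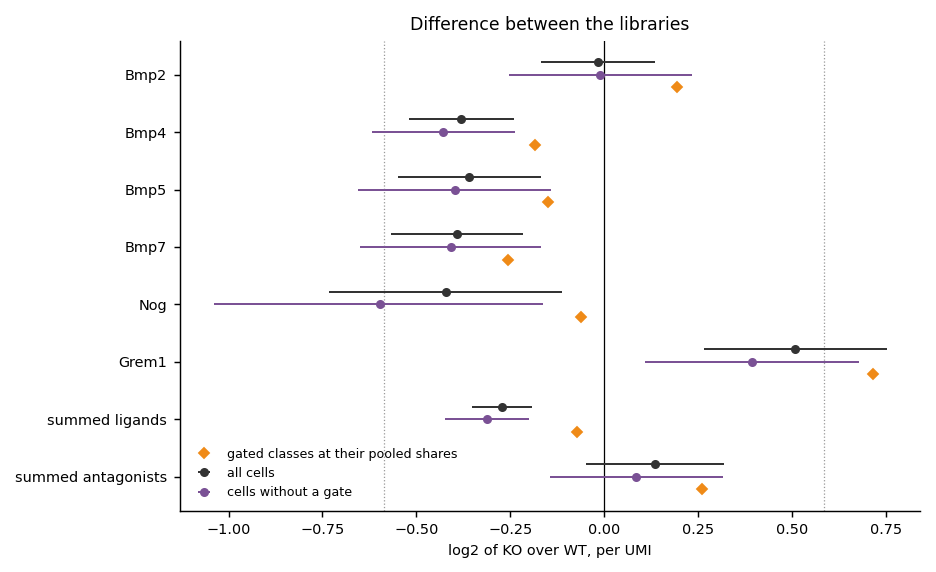
Log2 ratio of KO over WT for 6 members and for the summed ligands and antagonists, over all cells (black), over cells without a gate (purple) and with the gated classes at their pooled shares (orange, no interval). Bars are exact conditional intervals of 95% and dotted lines mark 1.5-fold. Bmp4, Bmp5, Bmp7 and Nog lie below 0 over all cells and over cells without a gate, and nearer to 0 in the gated cells alone at pooled shares, and Grem1 lies above 0 in all 3 (0.51, 0.39 and 0.71).

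Within classes, few member levels could be compared. There were 16 pairs of a member and a class with at least 30 UMIs over both libraries. Of these, 2 were at least 1.5-fold lower in KO, 0 were at least 1.5-fold higher, and 0 had an interval without 0. Over all 75346 pairs of a gene and a class, 9.19% were that much lower and 6.77% that much higher, with intervals below 0 in 5.58% and above 0 in 5.55%. The 2 pairs past 1.5-fold were Bmp2 in endothelial-like cells (22 and 14 UMIs, log2 ratio −0.62, −1.70 to 0.41), a level read above as background, and Bmp4 in pharyngeal endoderm-like cells (24 and 12 UMIs, −0.85, −1.99 to 0.20). In cardiac muscle-like cells the log2 ratios were 0.15 (−0.10 to 0.40) for Bmp2, −0.12 (−0.45 to 0.21) for Bmp4, −0.10 (−0.48 to 0.27) for Bmp5, −0.18 (−0.56 to 0.18) for Bmp7 and −0.17 (−0.97 to 0.60) for Nog. Most cells of this class (506 of 721 in WT and 272 of 404 in KO) passed the smooth muscle gate as well, with fewer raised markers. Without cells that passed more than 1 gate, the log2 ratio in cardiac muscle-like cells was −0.78 for Bmp4, −0.40 for Bmp2 and −0.45 for the summed ligands.

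The summed ligands were lower in KO beyond counting error in 4 of the 18 classes, and higher in 0. The share of 5.58% above is for single genes, and no such share was computed for sums. The dorsal neural tube gate held 21 ligand UMIs in WT and 8 in KO (90.01 and 35.1 CPM), a log2 ratio of −1.36 (−2.74 to −0.13). Pharyngeal endoderm-like cells had 144 and 81.7 CPM (−0.82, −1.60 to −0.08) and pharyngeal mesoderm-like cells had 260 and 129 CPM (−1.01, −1.89 to −0.18). Dermomyotome-like cells had 32 and 6 UMIs, or 98.0 and 33.1 CPM (−1.57, −3.12 to −0.29). The KO levels of the dorsal neural tube and dermomyotome gates were at or below the 38.3 CPM (24.0 to 58.0) of KO erythroid-like cells, so that they are read as background. With markers raised at 0.01 the ratio was −2.001 in dorsal neural tube-like cells and −1.59 in pharyngeal endoderm-like cells. When cells without a gate were assigned to the nearest class profile, the dorsal neural tube class grew to 2204 WT and 3034 KO cells, a different population from the gate, with 66.7% of held-out cells returned and a ratio of −0.52 (−0.79 to −0.25). In splanchnic mesoderm-like cells (288 and 306 CPM), surface ectoderm-like cells (285 and 297 CPM) and head mesenchyme-like cells (121 and 127 CPM) the intervals of the ratio held 0. Migrating neural crest-like cells, which belong to the Cre lineage, had 58.5 and 58.1 CPM, close to the erythroid-like 45.7 and 38.3 CPM.

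In the head mesenchyme gate Grem1 had 10 UMIs in WT and 19 in KO, a log2 ratio of 1.04 (−0.13 to 2.31). When cells without a gate were assigned to the class with the nearest profile, the class grew to 1375 WT and 989 KO cells. It then had 82 and 113 Grem1 UMIs, or 30.8 and 51.1 CPM, and a log2 ratio of 0.73 (0.31 to 1.16), with Bmp4 at 57.1 and 47.4 CPM (−0.27, −0.64 to 0.10). The assignment returned 86.0% of 236 held-out head mesenchyme-like cells to their gate, but 0% of pharyngeal mesoderm-like and sclerotome-like cells. Grem1 was thus higher in KO beyond counting error in this wider mesenchymal group, whose makeup was not tested, while in the gate itself the interval held 0. The wider group comes from the step added after the data were seen, and no share over all genes was computed for it.

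The patterns of the members over the 18 classes in both libraries (36 values of log2(CPM + 10) each, which share depth and free RNA within a library) were compared as a description. Bmp2 and Bmp4 were most alike among the members (Pearson r = 0.76), followed by Bmp4 and Bmp5 (0.68) and by Bmp2 and Bmp5 (0.61). Bmp2 and Grem1 were at −0.28. Outside the members and the gate markers, Dstn, Tpm1 and Rbpms came nearest to Bmp2 (0.76, 0.76 and 0.75), Igf2r, Capn6 and Pcdh7 to Bmp4 (0.83 each), and Gm26903, Myocd and Flnc to Bmp5 (0.83, 0.76 and 0.75). Bnip3, Gm2a and Dsp were nearest to Bmp7 (0.75, 0.71 and 0.68), Efnb3, Lpl and Trabd2b to Nog (0.71, 0.69 and 0.65), and Zcchc11, Cnksr3 and 5430416N02Rik to Grem1 (0.71, 0.70 and 0.67).

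The remaining genes of the pathway were read from lists of other ligands, antagonists, receptors, signal transducers and response genes. Of the response genes, which are known targets of BMP and SMAD signalling, 9 of 9 had at least 200 UMIs, and Bambi alone passed 1.5-fold. Bambi, a decoy receptor, had 1356 UMIs in WT and 706 in KO, or 65.3 and 37.3 CPM, with −0.81 (−0.94 to −0.68) as log2 ratio. Bambi was lower in KO within cardiac muscle-like cells (158 and 109 CPM with −0.53, −0.85 to −0.22), endothelial-like cells (73.5 and 39.9 CPM, −0.88, −1.52 to −0.27) and pharyngeal endoderm-like cells (104 and 51.1 CPM, −1.03, −2.01 to −0.12). Other classes are not listed here, and 5.58% of all pairs of a gene and a class had an interval below 0. In KO Bambi was highest in smooth muscle-like cells, at 3.24 times its level over all cells. Intervals below 0 were found for 6 of the 9 response genes and an interval above 0 for 1, beside 29.1% and 16.9% of all genes, with a median log2 ratio of −0.18 against −0.06 over all genes. Id2 went from 578 to 513 CPM (−0.17, −0.21 to −0.13) and Id3 from 220 to 187 CPM (−0.24, −0.30 to −0.18), whereas Id1 went from 89.5 to 103 CPM (0.21, 0.11 to 0.30). Id1, Id2 and Id3 encode dominant negative partners of helix-loop-helix factors. Msx1, a homeobox gene of the dorsal neural tube, had −0.45 (−0.58 to −0.32) over all cells, and in dorsal neural tube-like cells it went from 429 to 259 CPM (−0.73, −1.22 to −0.25). In that class it was 7.15 and 5.91 times its level over all cells, and it met the rule for concentrated genes.

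The receptors and transducers differed less. Of 6 receptors, 2 had an interval below 0 (Bmpr1a and Acvr1) and 1 above (Acvr2a), near the 29.1% and 16.9% of all genes, and 0 passed 1.5-fold. Bmpr1a, the main type I receptor, was at 193 and 185 CPM (−0.07, −0.13 to −0.00015), about the median of all genes, Acvr2b at 72.2 and 69.0 CPM and Bmpr2 at 56.0 and 60.0 CPM. Among 4 transducers, Smad4, the common partner of receptor SMADs, went from 108 to 125 CPM (0.22, 0.13 to 0.30) and Smad5 from 77.0 to 83.1 CPM (0.11, 0.01 to 0.21), with 0 intervals below 0, while Smad1 was at 43.8 and 45.8 CPM. Of the other ligands, 2 of 7 had 200 UMIs. Gdf11 was at 81.9 and 67.3 CPM (−0.28, −0.39 to −0.18), and Bmp1, which encodes a protease that cleaves chordin, was at 18.9 and 18.2 CPM. Of 12 other antagonists and modulators, 6 had enough UMIs, with 2 intervals below 0 (Fstl1 and Sostdc1) and 1 above (Chrdl1). Fstl1 was at 193 and 178 CPM, Twsg1 at 82.2 and 81.5 CPM and Fst, which encodes follistatin, at 67.6 and 67.1 CPM.

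**Figure D5:**
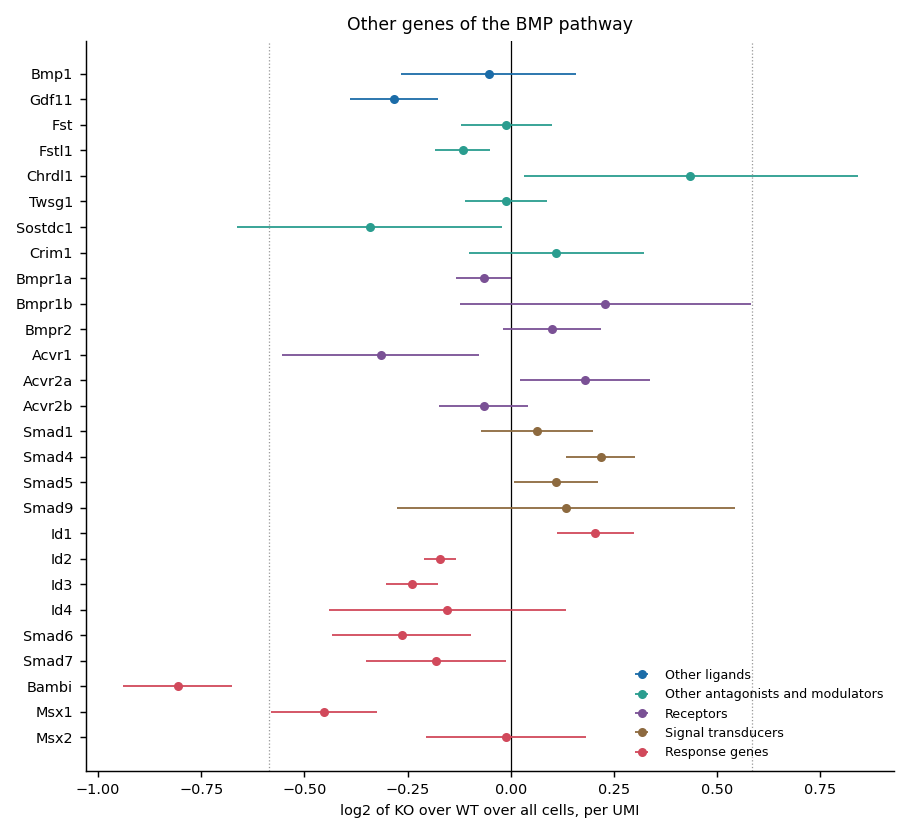
Log2 ratio of KO over WT over all cells for the other genes of the BMP pathway with at least 200 UMIs, grouped by role (colours). Points are ratios per UMI, bars are exact conditional intervals of 95% and dotted lines mark 1.5-fold. Bambi (−0.81) lies beyond 1.5-fold, Msx1 (−0.45) is the next lowest, and the receptors and transducers lie within 1.5-fold.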

How the data were processed

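Single cells of the region were profiled in 1 WT and 1 KO library. According to the submitters' processing notes and the methods of the study, reads were aligned and UMIs counted with Cell Ranger 1.3.1 and preprocessed with Scanpy on mm10, although the methods name a human genome with the reporter added. Samples were barcoded and pooled, and cells were not traced to single embryos here. Per these methods, cells below 200 or above 6000 UMIs or below 200 genes, genes found in fewer than 3 cells, and mitochondrial and ribosomal UMIs were removed. A doublet caller was used by the authors, whether before deposit is not said, and none was run here. The deposited values are a normalised signal, made by the authors as the square root of counts scaled to the same total in each cell. Whole UMIs were recovered from them by dividing each squared value by the smallest nonzero square of its cell, and 100% of nonzero values came out whole within 0.01. This takes the smallest value of a cell as 1 UMI, and a cell without such a gene would be given too few UMIs. The tables held 0 mitochondrial and 0 ribosomal protein columns, so that depths are of the deposited genes and lie below those of the libraries before this removal. The recovered means of 1738 UMIs per cell in WT and 1939 in KO lie below the mean counts per cell that the study states. The absolute scale of the UMIs could not be checked further. The libraries shared 26 cell barcodes.

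UMIs were summed over the cells of a class. A marker was called raised in a cell where its Poisson probability, from the depth of the cell and the share of the gene in both libraries, was under 0.05. A cell went to the gate with most raised markers, at least 2, and ties were left without a gate. The general neural gate gave way to the gates of dorsal neural tube, floor plate and neurons, and the notochord gate required T. Noto and Nkx3-2, which are on the marker lists, had no column. Poisson, conditional and Clopper-Pearson (exact binomial) intervals were computed with SciPy 1.17.1 and NumPy 2.4.6 in Python 3.11.15. Ratios were left out where neither library exceeded 3 UMIs, the limit that a count of 0 allows. Ratios and the rule for concentrated genes were checked on simulated counts. A test between cells, as in the study, was not repeated, since cells of 1 library are not replicates.

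The members, gene lists and tests were chosen with earlier results of these data known. Named genes were the members, the 3 genes most like each member with at least 200 UMIs by the correlation of log2(CPM + 10), the pathway genes past 1.5-fold and the 3 with most UMIs of each list. Msx1, Bmp10, Acvr1, Acvr2a, Sostdc1, Chrdl1 and the regional genes were named after their values were seen. Of the pathway lists, Bmp8a, Gdf3 and Cer1 had no column.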

Additional observations from a re-analysis of the deposited data

How the results depend on the processing

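No replicate could be left out with 1 library per genotype, and no paired analysis was possible because each group holds 1 library. The number of members past 1.5-fold over all cells stayed at 0 with a median of ratios, a trimmed mean, means over cells, thinning, no UMI minimum without the 5% of cells with most UMIs and with cells without a gate as a class at their pooled share (added after the data were seen), and was 1 (Grem1) with the gated classes at their pooled shares. Within classes the count of 2 pairs became 0 with at least 3 raised markers and 0 with markers raised at a probability of 0.01, settings under which 8 and 11 classes and 7 and 6 pairs were left, 1 after thinning (Bmp7 in cardiac muscle-like cells), where 6 pairs were left, and 6 of 37 pairs with the nearest profile, which was added after the data were seen. Those 6 were 2 lower and 4 higher and held neither of the main 2 pairs. The count was 3 without cells that passed more than 1 gate, where Bmp4 in cardiac muscle-like cells was added as lower, and 3 with means over cells, where Bmp2 in surface ectoderm-like cells was added as higher. The log2 ratio of the summed ligands ranged from −2.001 to −0.52 in the dorsal neural tube gate, from −1.59 to −0.50 in pharyngeal endoderm, from −1.59 to −0.81 in pharyngeal mesoderm and from −1.67 to −1.16 in dermomyotome. The ends nearest to 0 come from the nearest profile, which makes larger classes of other cells and returned 66.7%, 83.6%, 0% and 38.8% of the held-out cells of these 4 gates. The count of concentrated members, 1, became 2 (Bmp2 and Nog) with markers raised at 0.01, 0 without cells that passed more than 1 gate and 0 with the nearest profile. The 5 members whose interval over all cells left out 0 kept their direction under every setting run. Over the settings the log2 ratio of KO over WT over all cells ranged from −0.48 to −0.18 for Bmp4, from −0.48 to −0.15 for Bmp5, from −0.55 to −0.26 for Bmp7, from −0.57 to −0.06 for Nog and from 0.45 to 0.71 for Grem1. The nearest profile returned 74.4% of 3161 held-out gated cells to their gate. Intervals cover counting error only, and below about 30 UMIs a class shows only differences of several-fold.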
